A study of Mus musculus with 3 samples.

Results

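The 36 genes described here supply amino acids and load them onto tRNAs: 20 encode cytosolic aminoacyl-tRNA synthetases or their subunits, 5 encode enzymes of serine synthesis and mitochondrial one-carbon metabolism, 4 encode asparagine synthetase, the proline enzymes Pycr1 and Aldh18a1 and the mitochondrial PEP carboxykinase Pck2, 6 encode amino acid transporters, and 1 is the leucine sensor Sesn2. They were taken as a list of names, chosen with earlier results of these data known, and all 36 were found among the 20471 genes of the count table. Wild-type mouse embryonic fibroblasts (MEFs, connective tissue cells grown from embryos) were kept for 4 days in a reprogramming medium labelled CFAE+8 with 1 library compound per well on 3 plates, and each well was profiled by DRUG-seq2, which barcodes the RNA of each well by its 3' end and sequences the wells of a plate as a pool. The study looked for compounds that change cell reprogramming. Plate 3 also held wells named for media, and these are the groups compared: bC8FAE (5 wells), bC6FAE[2] (3), bC6FAE[10] (4), bCLFAE (4), bCSFAE (4), bCFAE (3), basal (3) and MEF (4). The composition of these media, the compound doses and the source of separate wells were not given in the sources used here, so the media names are used as names, and p-values measure the spread between wells, which may be technical. No well was named for a vehicle: each compound was set against all other screening wells of its plate, which on plate 3 include the 5 bC8FAE wells. Wells are bulk samples, so fewer cells of a type and less RNA per cell cannot be told apart.

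Aminoacyl-tRNA synthetases join each amino acid to its tRNA, the step that feeds the ribosome. When an amino acid runs short, uncharged tRNA activates the kinase GCN2 (Eif2ak4), which phosphorylates eIF2 and raises translation of the transcription factor ATF4; ATF4 then drives transcription of synthetases, Asns, the serine enzymes Phgdh, Psat1, Psph, Shmt2 and Mthfd2, and transporters such as Slc7a11 and Slc7a5. This is the amino acid branch of the integrated stress response, and mTORC1 signalling also raises ATF4 in fibroblasts. The DNA motif read by ATF4 with C/EBP partners is the C/EBP-ATF response element.

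The fibroblast label held in the MEF wells, where all 10 fibroblast markers were detected with a summed level of 6378 to 8238 CPM (counts scaled to a common total per well). Of the markers of other cell types, Epcam, Ptprc, Cdh5, Kdr, Myod1, Myog, Ttn, Elavl3, Adipoq and Plin1 had no count there. Other markers were detected there: 4 of 5 epithelial (summed 7.2 to 34.1 CPM), 4 of 5 macrophage (193 to 339 CPM), 3 of 4 neural (14.4 to 53.8 CPM), 2 of 4 endothelial (0 to 7.2 CPM), 2 of 4 adipocyte (0 to 15.7 CPM) and 1 of 4 skeletal muscle markers (7.2 to 19.9 CPM). In screening wells these sums reached 601 CPM for epithelial, 453 CPM for muscle and 497 CPM for neural markers, all in the Trametinib well, and 641 CPM for macrophage markers in the NT157 well. Total counts were 45416 to 591025 in the 90 screening wells of plate 1, 92437 to 1206219 in the 87 of plate 2 and 119295 to 703918 in the 46 of plate 3. Counting intervals given below cover counting error only.

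The promoters of the set are shown because many of its members carry the letters of the C/EBP-ATF response element. RefSeq promoter entries of build GRCm38.p6, covering 250 bases before to 50 bases after the gene start, were matched by symbol for 27 of the 36 members. The motif TGATGNAAN, searched on both strands, occurred in 10 of these 27 members (37.0%), against 1215 of 27025 genes in the same table (4.5%). By role it occurred in 5 of 13 synthetases (38.5%) and 5 of 14 other members (35.7%). The 10 were Aars, Gars, Iars, Tars, Yars, Asns, Pycr1, Pck2, Slc7a11 and Slc1a4. The stretches around the motif are printed for the 7 members with a match wholly before the gene start, which leaves out Iars, Yars and Slc1a4. They run 5′ to 3′ on the strand of the gene, with the motif in capitals. Where it lies on the opposite strand the capitals end in CATCA.
Aars: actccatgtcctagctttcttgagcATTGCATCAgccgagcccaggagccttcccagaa
Gars: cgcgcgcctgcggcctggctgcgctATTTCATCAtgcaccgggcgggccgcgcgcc
Tars: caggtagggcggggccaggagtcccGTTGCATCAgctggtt
Asns: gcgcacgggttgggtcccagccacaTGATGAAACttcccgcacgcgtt
Pycr1: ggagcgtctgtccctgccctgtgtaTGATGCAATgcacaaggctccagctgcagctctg
Pck2: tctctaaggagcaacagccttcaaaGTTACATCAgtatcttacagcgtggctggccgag
Slc7a11: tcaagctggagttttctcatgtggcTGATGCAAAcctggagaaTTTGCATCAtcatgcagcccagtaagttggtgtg

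These stretches lie at chr8:111033704-111033762 (Aars, plus strand), chr6:55037945-55038000 (Gars, plus), chr15:11399659-11399699 (Tars, minus), chr6:7693210-7693257 (Asns, minus), chr11:120643818-120643876 (Pycr1, minus), chr14:55540137-55540195 (Pck2, plus) and chr3:50443628-50443704 (Slc7a11, minus). The motif begins 16 bases before the gene start in Tars, 23 in Asns, 31 in Gars, 103 in Pycr1, 104 in Pck2 and 113 in Aars. Slc7a11 has 2 matches on opposite strands, 66 and 48 bases before its start. Starts are those of the RefSeq entries; the GENCODE annotation starts Aars at 111033144 and Asns at 7693254, upstream of the motif, so that both motifs lie inside the gene by that annotation. A match describes the letters of the window and was not tested as a binding site. Members without an entry were Cars, Hars, Lars, Nars, Rars, Vars, Wars, Slc7a5 and Slc1a5.

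The largest movement of the set among media was between bCFAE and basal wells. Of the 34 members that passed the filter on low counts, 15 rose and 3 fell in bCFAE wells (adjusted p under 0.05, edgeR's quasi-likelihood test over 6985 genes), beside 16.3% of all genes called higher and 18.2% called lower. The median log2 fold change was 0.51 over the members and 0.00 over all genes. The synthetases moved one way: 11 of 20 rose, none was called lower, 18 had a log2 fold change above 0, and their median was 0.54. The summed level of the 36 members was 3845 to 4101 CPM in bCFAE wells and 2450 to 2676 CPM in basal wells. Markers of other cell types moved with the same groups: macrophage markers summed to 48.9 to 52.3 CPM in bCFAE wells and 129 to 285 CPM in basal wells, adipocyte markers to 0 to 3 CPM in bCFAE wells and 56.4 to 96.9 CPM in basal wells, and epithelial markers to 61.7 to 88.4 CPM in bCFAE wells and 15.9 to 38.2 CPM in basal wells. Their part in the results was not tested.

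Rars, the arginyl-tRNA synthetase, had 215, 186 and 191 CPM in bCFAE wells and 59.2, 61.7 and 60.2 CPM in basal wells. All 3 bCFAE wells lay above all 3 basal wells, and the gene rose by 1.57 ± 0.20 on the log2 scale (± SE here and below, adjusted p = 2.64e-09). Aars, the alanyl-tRNA synthetase, had 287, 299 and 256 CPM in bCFAE wells and 124, 123 and 88.8 CPM in basal wells, again without overlap, a rise of 1.19 ± 0.16 (adjusted p = 2.43e-08). Exons of Exosc6 overlap it on the same strand, and how reads in the overlap were counted was not stated. Hars (histidine) had 162, 201 and 177 CPM in bCFAE wells and 76.1, 85.2 and 98.3 CPM in basal wells, a rise of 0.93 ± 0.18 (adjusted p = 4.27e-05). Vars (valine) had 141, 158 and 191 CPM in bCFAE wells and 56.4, 112 and 82.4 CPM in basal wells, a rise of 0.81 ± 0.20 (adjusted p = 0.000663). The bCFAE wells of both genes lay above the basal wells. Farsb, a phenylalanyl-tRNA synthetase subunit, had 64.7, 71.6 and 55.8 CPM in bCFAE wells and 28.2, 35.2 and 38.04 CPM in basal wells (0.81 ± 0.28, adjusted p = 0.0175); without basal replicate 1 or bCFAE replicate 2 its adjusted p was 0.0893 or 0.0647. The other synthetases called higher were Qars, Gars, Mars, Iars, Wars and Sars, with log2 fold changes of 0.80, 0.70, 0.72, 0.70, 0.53 and 0.31.

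Asparagine supply and 2 of the transporters moved with the synthetases. Asns, which makes asparagine from aspartate and glutamine, had 125, 142 and 128 CPM in bCFAE wells and 47.9, 49.9 and 63.4 CPM in basal wells, and rose by 1.16 ± 0.22 (adjusted p = 1.7e-05). Slc3a2, the heavy chain shared by several amino acid exchangers, had 227, 257 and 198 CPM in bCFAE wells and 118, 85.2 and 108 CPM in basal wells, a rise of 1.00 ± 0.19 (adjusted p = 1.7e-05). Neither gene's groups overlapped. Slc7a11, which imports cystine in exchange for glutamate as the partner of Slc3a2, had 31.6, 19.3 and 9.31 CPM in bCFAE wells, 39 counts in all, and no count in any basal well. Against a floor of 3 counts over the basal wells it was at least 7.22-fold higher in bCFAE wells (adjusted p = 1.85e-05). Of the serine enzymes tested, only Shmt2, the mitochondrial serine hydroxymethyltransferase, passed the test and was singled out after its values were seen; it had 75.2, 103 and 86.1 CPM in bCFAE wells and 31.0, 52.9 and 60.2 CPM in basal wells (0.76 ± 0.25, adjusted p = 0.0131). Psat1, which transaminates the serine precursor, averaged 146 ± 7.83 CPM in bCFAE wells and 103 ± 21.6 CPM in basal wells (SD, n = 3 each) and was not called.

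In the same comparison 3 members fell. Pck2, which makes phosphoenolpyruvate in mitochondria, had 27.1, 17.9 and 32.6 CPM in bCFAE wells and 87.4, 70.5 and 76.1 CPM in basal wells, and fell by 1.78 on the log2 scale (SE 0.27, adjusted p = 3.76e-07). All bCFAE wells lay below all basal wells. Pycr1, the last enzyme of mitochondrial proline synthesis, had 7.52, 13.8 and 6.98 CPM in bCFAE wells and 28.2, 11.7 and 31.7 CPM in basal wells, which overlap (-1.38 ± 0.49, adjusted p = 0.0237). Slc1a4, a neutral amino acid transporter that carries serine, had 10.5, 12.4 and 23.3 CPM in bCFAE wells and 25.4, 26.4 and 31.7 CPM in basal wells (-1.07 ± 0.40, adjusted p = 0.0305). The call of Pycr1 was lost without basal replicate 1, basal replicate 3, bCFAE replicate 1 or bCFAE replicate 3 (adjusted p = 0.0593 to 0.135), and that of Slc1a4 with DESeq2 (adjusted p = 0.0508), with no filter (0.108) and without any 1 basal well, bCFAE replicate 1 or bCFAE replicate 2 (0.0617 to 0.132).

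**Figure D1:**
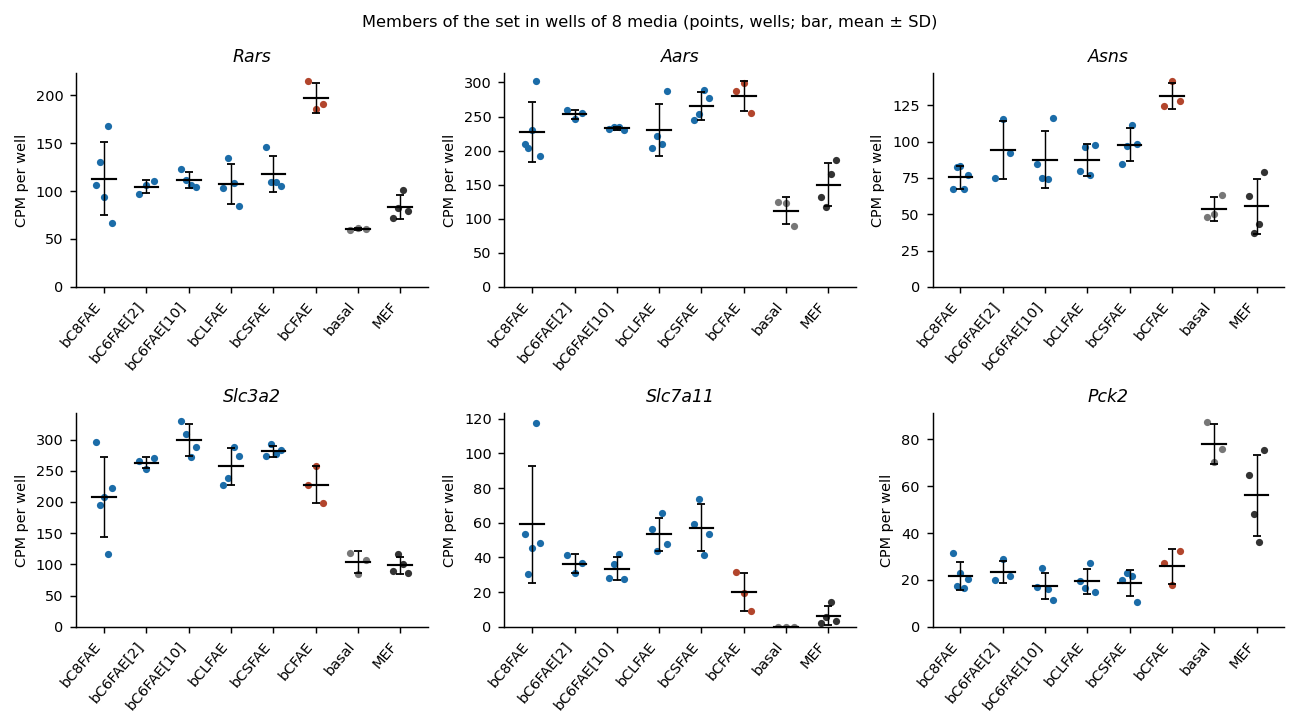
Level of 6 members in each media well in CPM, with 1 point per well and the mean ± SD as bars. In bCFAE wells Rars, Aars, Asns and Slc3a2 sit above the basal wells, Slc7a11 is at 0 in all 3 basal wells, and Pck2 sits lower in bCFAE wells (17.9 to 32.6 CPM) than in basal wells (70.5 to 87.4 CPM).

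Genes of the integrated stress response outside the set did not follow the synthetases in this comparison. Of 15 tested genes on a list of 31, 8 fell in bCFAE wells and 1 rose. Cebpb, a C/EBP transcription factor, had 51.2 to 88.8 CPM in bCFAE wells and 206 to 255 CPM in basal wells and fell by 1.82 (SE 0.20, adjusted p = 8.63e-11). Gtpbp2, Ddit4 and the transcription factor Ddit3 fell by 1.19, 1.11 and 0.92, and the others called lower were Slc38a2, Gpt2, Jdp2 and Atf5. Got1, the cytosolic aspartate transaminase, rose by 1.19 ± 0.38. Atf4 itself averaged 288 ± 2.31 CPM in bCFAE wells and 233 ± 15.9 CPM in basal wells (SD, n = 3 each) and was not called. Ddit3 overlaps Mars on the opposite strand and the counting was not stated to use strand, so part of either gene's counts cannot be told apart.

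Of 17 tested genes of other amino acid metabolism and transport (list of 25), 7 rose and 1 fell in bCFAE wells. Slc7a7, a cationic amino acid exchanger partner of Slc3a2, had 25.6 to 30.3 CPM in bCFAE wells and 2.94 to 5.64 CPM in basal wells (log2 fold change 2.61 ± 0.60, adjusted p = 0.000408), with 51 and 4 counts. The transporter Slc38a1, the folate enzyme Mthfd1 and argininosuccinate synthase Ass1 rose by 1.86, 1.39 and 1.14 on the log2 scale, and Aldh4a1, which degrades proline, fell by 0.80. Beside the 16.3% of all genes called higher, 1 of 3 tested synthetase partners rose (Aimp2), as did 1 of 9 tested mitochondrial synthetases (Tars2) and 2 of 6 tested genes of amino acid sensing by mTORC1 (Rptor and Rragc).

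Between basal and MEF wells no member was called by edgeR's quasi-likelihood test, with 4 members at an unadjusted p under 0.05 and 0 called by DESeq2. Of all genes 0.372% were called higher and 0.315% lower in basal wells, and the median log2 fold change was -0.06 over the members and 0.00 over all genes. The summed level of the set was 2450 to 2676 CPM in basal wells and 2734 to 3315 CPM in MEF wells.

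In bC8FAE wells 8 members rose and 4 fell relative to MEF wells, beside 15.2% of all genes called higher and 16.9% lower. Macrophage markers summed to 36.9 to 83.8 CPM in bC8FAE wells and 193 to 339 CPM in MEF wells, and their part in the result was not tested. The median log2 fold change was 0.19 over the members and 0.02 over all genes. Slc7a11 had 53.4, 30.4, 45.5, 117 and 48.6 CPM in bC8FAE wells and 2.24, 5.68, 14.4 and 3.59 CPM in MEF wells, a rise of 3.20 ± 0.46 (adjusted p = 8e-08). Its partner Slc3a2 had 296, 195, 207, 117 and 223 CPM in bC8FAE wells and 89.5, 117, 101 and 86.1 CPM in MEF wells, a rise of 1.11 ± 0.17 (adjusted p = 3.57e-07). Slc7a11 was higher in every bC8FAE well than in any MEF well; for Slc3a2 the lowest bC8FAE well and the highest MEF well lay side by side. That bC8FAE well, replicate 4, was also the one highest in Slc7a11 and had the fewest counts of the media wells (119295).

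The synthetases called higher in bC8FAE wells were Mars, Hars, Vars, Kars, Aars and Qars. Mars (methionine) had 45.5, 50.0, 40.5, 83.8 and 33.3 CPM in bC8FAE wells and 22.4, 22.7, 21.6 and 17.9 CPM in MEF wells, without overlap (1.03 ± 0.28, adjusted p = 0.00386). Hars had 168, 165, 157, 277 and 205 CPM in bC8FAE wells and 85.0, 76.7, 137 and 89.7 CPM in MEF wells, also without overlap (0.94 ± 0.17, adjusted p = 4.58e-06). Vars, Kars, Aars and Qars rose by 0.67, 0.55, 0.52 and 0.46; Kars had overlapping groups, and Qars lost its call without MEF replicate 2 (adjusted p = 0.0591). Nars (asparagine) went the other way, with 217, 289, 268, 503 and 189 CPM in bC8FAE wells and 398, 321, 735 and 208 CPM in MEF wells (-0.58 ± 0.17, adjusted p = 0.007). The Nars groups overlapped widely, and the call was lost without MEF replicate 3 (adjusted p = 0.0768).

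Slc1a4, Pck2 and the proline enzyme Aldh18a1 were lower in bC8FAE wells. Slc1a4 had 13.8, 19.6, 10.1, 33.5 and 17.9 CPM in bC8FAE wells and 40.3, 65.4, 50.5 and 43.0 CPM in MEF wells (-1.61 ± 0.32, adjusted p = 3.75e-05). Pck2 had 31.6, 17.4, 22.8, 16.8 and 20.5 CPM in bC8FAE wells and 64.9, 48.3, 36.04 and 75.3 CPM in MEF wells (-1.41 ± 0.28, adjusted p = 3.65e-05). Aldh18a1 had 1.98, 10.9, 5.06, 16.8 and 15.3 CPM in bC8FAE wells and 24.6, 25.6, 21.6 and 21.5 CPM in MEF wells (-1.50 ± 0.43, adjusted p = 0.00435). None of the 3 overlapped between the groups. Of the stress response list 7 of 15 tested genes fell and none rose in bC8FAE wells, with Cebpb lowest (-1.56 ± 0.19) and Jdp2, Atf5 and Ddit3 at -1.37, -1.01 and -0.93. Of the other amino acid genes Slc7a7, Slc43a2, Glul and Ass1 rose by 4.33, 1.58, 1.51 and 0.89 on the log2 scale, and Aldh4a1, Oat and Glud1 fell.

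Each of the 5 other media was also set against bCFAE; these comparisons share the 3 bCFAE wells, so their values stand side by side only. Rars was lower in all 5, and it kept the call in each under every alternative tried. It had 107, 130.3, 93.6, 168 and 66.5 CPM in bC8FAE wells, 97.1, 107 and 111 CPM in bC6FAE[2] wells, 123, 111, 107 and 104 CPM in bC6FAE[10] wells, 103, 134, 108 and 84.6 CPM in bCLFAE wells and 146, 109.5, 109.8 and 106 CPM in bCSFAE wells, against the 215, 186 and 191 CPM of the bCFAE wells. No well of the 5 media reached the lowest bCFAE well. The log2 fold changes were -0.86 ± 0.15, -0.84 ± 0.17, -0.77 ± 0.15, -0.84 ± 0.14 and -0.75 ± 0.14, with adjusted p from 1.45e-05 to 0.00025.

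Relative to bCFAE, bC8FAE wells had 1 member higher and 6 lower, beside 5.58% and 5.5% of all genes; the member median was -0.20 and that of all genes 0.01. Asns had 67.2, 82.5, 83.5, 67.1 and 76.8 CPM in bC8FAE wells and 125, 142 and 128 CPM in bCFAE wells (-0.75 ± 0.17, adjusted p = 0.00112), without overlap. Slc7a5, the light chain that pairs with Slc3a2 to carry large neutral amino acids, had 25.7, 8.69, 7.59, 41.9 and 5.12 CPM in bC8FAE wells and 46.6, 39.9 and 27.9 CPM in bCFAE wells; it was lower (-1.39 ± 0.35, adjusted p = 0.00436) with overlapping wells. Slc7a11 was higher by 1.25 ± 0.29 (adjusted p = 0.00186), also with overlap. Shmt2, the one-carbon dehydrogenase Mthfd2 and Gars were lower by 0.85, 0.76 and 0.52; Shmt2 and Mthfd2 lost their calls without bCFAE replicate 2 (adjusted p = 0.0575 and 0.0576), and Gars with DESeq2 (0.0527) and without bC8FAE replicate 5, bCFAE replicate 2 or bCFAE replicate 3 (0.0657 to 0.0712).

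In bC6FAE[10] wells 3 members were higher and 4 lower than in bCFAE wells, beside 7.59% and 6.06% of all genes. Sesn2, which binds leucine and restrains mTORC1 when leucine is low, had 98.1, 90.2, 78.9 and 85.9 CPM in bC6FAE[10] wells and 58.7, 55.1 and 44.2 CPM in bCFAE wells (0.77 ± 0.19, adjusted p = 0.00228). Pycr1 had 15.1, 46.1, 27.8 and 34.8 CPM in bC6FAE[10] wells and 7.52, 13.8 and 6.98 CPM in bCFAE wells (1.67 ± 0.40, adjusted p = 0.00185). In both genes all bC6FAE[10] wells lay above all bCFAE wells. Slc3a2 was higher by 0.44 ± 0.14, and Lars, Asns and Yars were lower by 0.61, 0.55 and 0.55; these 4 calls were lost when some single wells were left out. Slc3a2 lost its call without bC6FAE[10] replicate 1 or 2 or bCFAE replicate 1 or 3 (adjusted p = 0.0635 to 0.125) and with no filter (0.069). Lars lost it without bC6FAE[10] replicate 3 or 4 or bCFAE replicate 1 or 2 (0.084 to 0.162), with no filter (0.0543) and with DESeq2 (0.0988). Asns lost it without bC6FAE[10] replicate 2 or 3 or bCFAE replicate 2 (0.0595 to 0.102), and Yars without bCFAE replicate 3 (0.0811). In bC6FAE[2] wells Pycr1 was the member called higher (1.49 ± 0.45, adjusted p = 0.027) and Rars and Shmt2 the 2 called lower, beside 5.03% and 3.55% of all genes. Pycr1 lost this call without bC6FAE[2] replicate 1, 2 or 3 (adjusted p = 0.0595, 0.132 and 0.0533) and without bCFAE replicate 1 or 3 (0.132 and 0.0765), and Shmt2 (-0.71 ± 0.23, adjusted p = 0.039) lost its call with DESeq2 (0.101), without bC6FAE[2] replicate 1 or 2 (0.222 and 0.177) and without bCFAE replicate 2 or 3 (0.237 and 0.0688).

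In bCLFAE and bCSFAE wells Slc7a11 was the member called higher, beside 3.21% and 3.18% of all genes. It had 56.2, 43.7, 65.4 and 47.8 CPM in bCLFAE wells and 59.3, 74.0, 41.2 and 53.8 CPM in bCSFAE wells, against 31.6, 19.3 and 9.31 CPM in bCFAE wells (1.31 ± 0.28, adjusted p = 0.00105, and 1.43 ± 0.28, adjusted p = 0.000189). Neither medium overlapped with bCFAE. By median, Slc7a11 was at 56.5 CPM in bCSFAE, 52 in bCLFAE, 48.6 in bC8FAE, 36.8 in bC6FAE[2], 32.4 in bC6FAE[10], 19.3 in bCFAE, 4.64 in MEF and 0 in basal wells. The ranges of bCSFAE and bCLFAE overlapped, and that of bC8FAE (30.4 to 117 CPM) overlapped both of them, both bC6FAE media and bCFAE. The ranges of bC6FAE[2] (31.07 to 41.6 CPM) and bC6FAE[10] (27.86 to 41.75 CPM) overlapped each other. Both also overlapped bCSFAE, whose lowest well had 41.18 CPM, and bCFAE, whose highest had 31.59 CPM. Rars, Gars and Asns were called lower in bCLFAE wells and Rars and Kars in bCSFAE wells, beside 3.29% and 2.92% of all genes. Gars and Asns in bCLFAE lost their calls without bCFAE replicate 2 (adjusted p = 0.055 and 0.142) or 3 (0.0582 and 0.0531), without bCLFAE replicate 2 (Gars, 0.0846), without bCLFAE replicate 1 or 3 (Asns, 0.0719 and 0.0681) and with DESeq2 (Asns, 0.0511). Kars in bCSFAE lost its call with no filter (0.0943), without bCFAE replicate 1 or 2 (0.212 and 0.0524) and without bCSFAE replicate 1, 3 or 4 (0.0613, 0.0615 and 0.0668).

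Of the 34 members tested, Cars, Dars, Eprs, Farsa, Tars, Psat1, Psph and Slc1a5 were called in none of the 8 media comparisons. Phgdh, the entry enzyme of serine synthesis, and Slc7a1, a cationic amino acid transporter, were too low to pass the filter. Phgdh had 16.3 to 16.6 CPM in bCFAE wells and 0 to 8.81 CPM in basal wells. Slc7a1 had 12 counts in bCFAE and 2 in basal wells, a ratio of 3.33 with a 95% counting interval of 0.741 to 30.6.

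**Figure D2:**
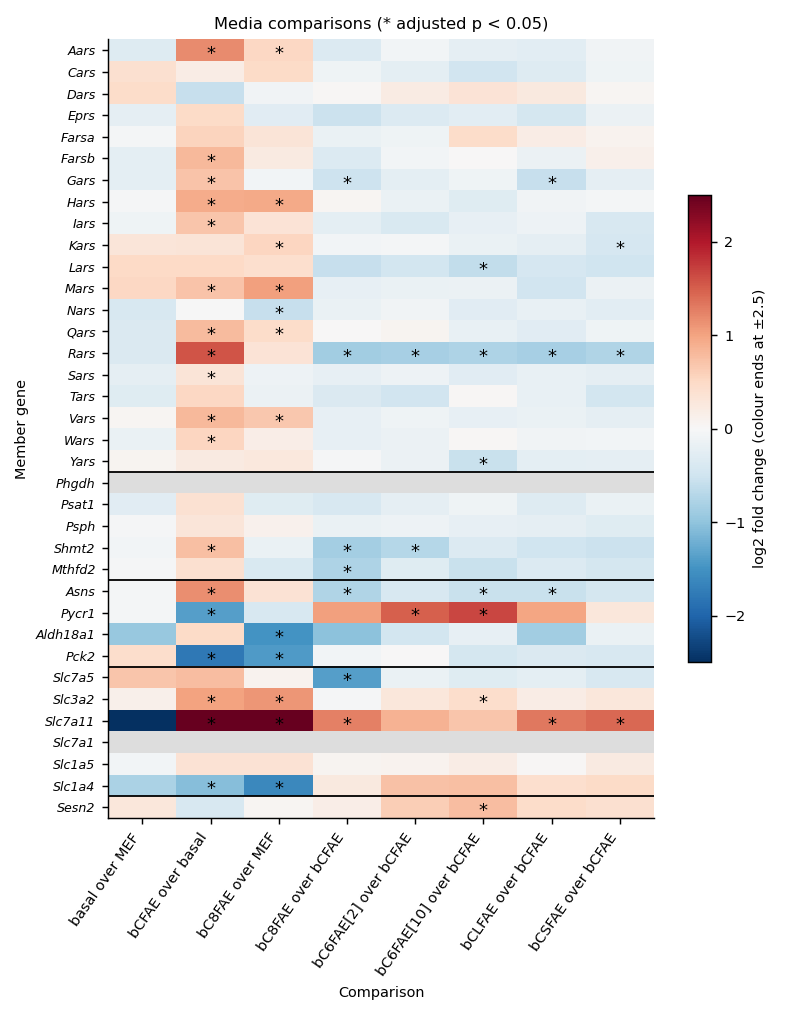
Log2 fold changes of the 36 members in the 8 media comparisons, with members in lines ordered by role, colour ending at ±2.5, grey where a gene did not pass the filter and an asterisk where adjusted p was under 0.05. The bCFAE over basal column holds 15 asterisks on higher and 3 on lower members, and Rars carries an asterisk in all 5 columns over bCFAE.

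Across the screen 16 of 211 compounds had at least 1 member called, 11 with a member higher and 10 with a member lower. Over 7342 tests of members 0.586% were called higher and 0.245% lower, beside 0.365% and 0.276% of all tests of all genes. With p-values adjusted over all compounds of a plate together, 8 compounds kept a member called. Most compounds had 1 well, so the spread was taken from all wells of the plate. The compounds named are those with the most members called in either direction.

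Coptisine, a protoberberine alkaloid, had the most. In its single well 14 of 34 members tested rose and none fell, while 0.62% of all genes were called higher and 0.0923% lower. The median log2 fold change was 1.11 over the members and -0.04 over all genes, and 19 of the 36 members had their highest value on the plate in this well. Its summed level of the set, 6298 CPM, was the highest of plate 1, where the median well had 3128 CPM. The well had 591025 counts, 185.8% of the plate median and the deepest of the plate.

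All 4 tested enzymes of the serine and one-carbon group rose with Coptisine. Shmt2 had 208 CPM with Coptisine and 0, 48.1 and 85.6 CPM (lowest, median and highest) in the 89 other wells, a rise of 2.15 ± 0.27 (adjusted p = 1.3e-08). Mthfd2 had 239 CPM with Coptisine and 8.65, 57.6 and 128 CPM in the other wells (2.10 ± 0.33, adjusted p = 5.68e-06), and Psph, the phosphatase that releases serine, had 223.3 CPM and 12.03, 57 and 194 CPM (1.96 ± 0.36, adjusted p = 0.000124). The Coptisine well exceeded every other well of plate 1 in each of these genes, as it did in all 14 called members. Psph overlaps Cct6a on the opposite strand. Psat1 had 255 CPM with Coptisine and 43.5, 109 and 213 CPM in the other wells (1.30 ± 0.32, adjusted p = 0.0228); its call and that of Mars were lost when adjusted over all compounds of the plate (0.0758 and 0.101). Phgdh, below the filter, had 27.1 CPM with Coptisine and 0, 8.42 and 22.8 CPM in the other wells.

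Pck2 showed the largest difference of a member in the Coptisine well, with 146 CPM against 3.13, 23.3 and 66.1 CPM in the other wells (2.62 ± 0.40, adjusted p = 2.38e-06). Asns had 349 CPM with Coptisine and 32.1, 93.3 and 182 CPM in the other wells (1.93 ± 0.29, adjusted p = 1.36e-06). Among transporters, Slc7a5 had 102 CPM with Coptisine and 0, 23.9 and 77.9 CPM in the other wells (2.04 ± 0.38, adjusted p = 0.000242), and Slc1a5, a glutamine carrier, rose by 1.67 ± 0.37 (adjusted p = 0.00527). The synthetases that rose were Gars, Wars, Lars, Mars, Nars and Sars, by 1.498, 1.33, 1.25, 1.23, 1.18 and 1.11. Sars (serine) had 589 CPM with Coptisine and 174, 284 and 389 CPM in the other wells. Aars, Slc3a2 and Slc7a11 had log2 fold changes of 1.00, 1.12 and 1.35 and did not pass the test (adjusted p = 0.0714, 0.0864 and 0.355), and Pycr1 was at 20.3 CPM beside a median of 19.0 CPM.

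LY3009120, a pan-RAF kinase inhibitor, had 10 members higher and 1 lower on plate 3, beside 3.16% and 1.55% of all genes; the member median was 0.59 and that of all genes -0.05. Its summed level of the set, 5132 CPM, was the highest of the plate, whose median well had 3367 CPM. Neural markers summed to 126 CPM in this well, above the 6.3, 28.9 and 53.3 CPM (lowest, median and highest) of the other wells. Fibroblast markers summed to 7937 CPM, above their 2161, 5883 and 7228 CPM. The part of these markers in the results was not tested. Of the serine and one-carbon members, Psph, Mthfd2, Psat1 and Shmt2 rose. The 10 also count Phgdh, which passed the filter on low counts on this plate through this well only, so its call is no support. Psph had 201 CPM with LY3009120 and 26.3, 40.9 and 83.4 CPM in the 45 other wells (2.20 ± 0.30, adjusted p = 2.33e-07). Phgdh had 40.2 CPM and 0, 8.38 and 22.1 CPM in the other wells. Mthfd2, Psat1 and Shmt2 rose by 1.94, 1.73 and 1.24. Each of these 5 genes was above every other well of the plate.

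Pck2 had 166 CPM with LY3009120 and 4.50, 20.6 and 43.4 CPM in the other wells (2.91 ± 0.31, adjusted p = 4.69e-10). Slc1a4 had 131 CPM with LY3009120 and 6.29, 18.1 and 69.3 CPM in the other wells (2.72 ± 0.44, adjusted p = 1.02e-05), and Slc7a5 had 107 CPM and 5.12, 22.2 and 69.2 CPM (2.20 ± 0.46, adjusted p = 0.000844). Asns had 230 CPM with LY3009120 and 52.6, 71.9 and 109 CPM in the other wells (1.62 ± 0.25, adjusted p = 3.84e-06). These 4 genes also stood above every other well. Of the synthetases Sars rose by 0.70 ± 0.20 and Qars (glutamine) fell to 107 CPM with LY3009120, below the 128, 218 and 277 CPM of the other wells (-0.98 ± 0.30, adjusted p = 0.0408). Adjusted over all compounds of the plate, Phgdh, Shmt2, Sars and Qars lost their calls (0.0924, 0.116, 0.177 and 0.218), and with no filter Sars and Qars did (0.0666 and 0.0557). The members called higher in both wells were Asns, Mthfd2, Pck2, Psat1, Psph, Sars, Shmt2 and Slc7a5, which is 57.1% of those of Coptisine and 80.0% of those of LY3009120; these comparisons are on different plates and share no well.

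**Figure D3:**
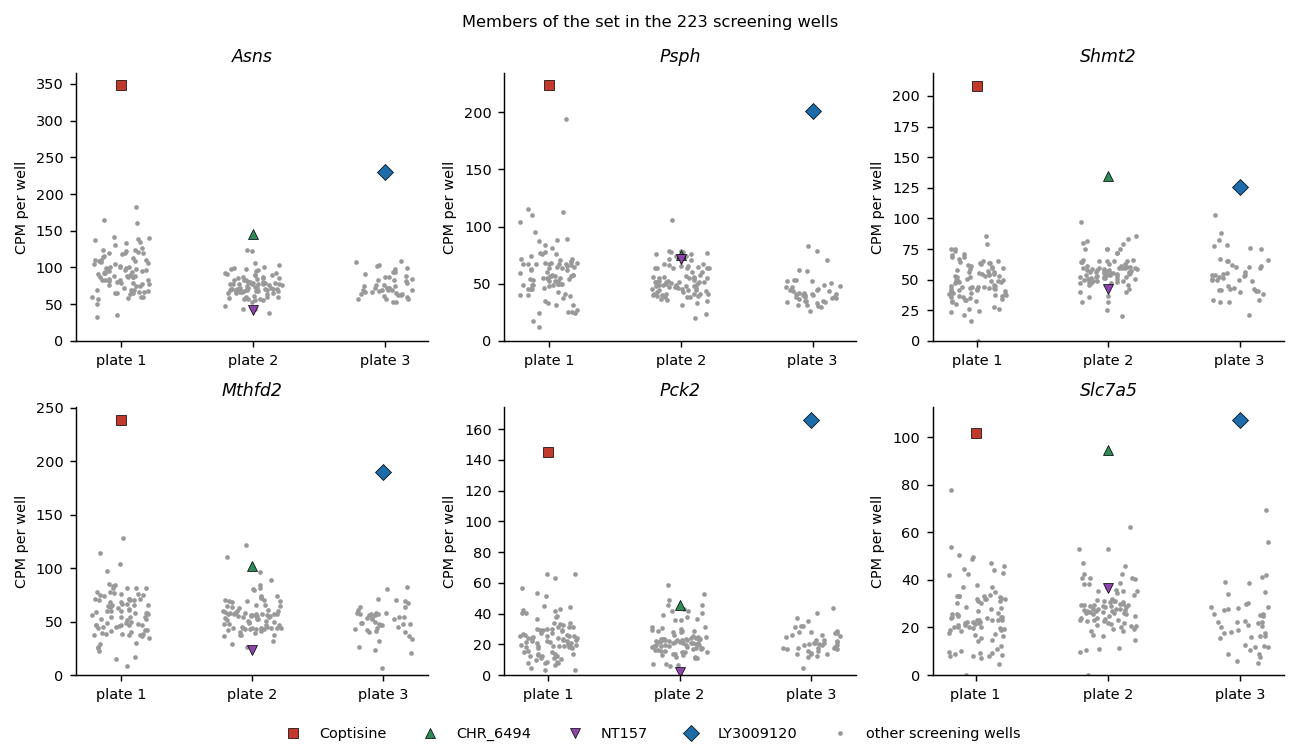
Level of 6 members in CPM in each of the 223 screening wells by plate, with 4 compounds marked and all other wells in grey. The Coptisine well on plate 1 and the LY3009120 well on plate 3 lie above every other well of their plates in all 6 genes, while NT157 is near the bottom of plate 2 for Pck2 at 1.93 CPM.

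Part of the listed ATF4 target and stress response genes outside the set rose in the same 2 wells. Of all genes 0.62% were called higher with Coptisine and 3.16% with LY3009120. With Coptisine 9 of 18 tested stress response genes were higher and none lower. Chac1, which degrades glutathione, had 120 CPM against 0, 2.45 and 19.9 CPM in the other wells. The pseudokinase gene Trib3 had 110 CPM against 0, 4.43 and 22.04 CPM. Both passed the filter on low counts on plate 1 through this well only, so their calls, counted in the 9, are no support. Atf5 and Gdf15 rose by 2.10 and 1.95, and Atf4 by 1.12 ± 0.29 (adjusted p = 0.0313). With LY3009120 8 of 21 tested were higher and none lower, with Chac1 at 4.02 ± 0.76, Jdp2 and Gpt2 at 2.32 and 2.30, and Atf4 at 1.04 ± 0.24 (adjusted p = 0.00283). The 8 include Trib3, with 85.7 CPM against 0, 4.93 and 12.3 CPM in the other wells. It too passed the filter on its plate through this well only. Of other amino acid genes none of 17 was called with Coptisine, while with LY3009120 Aldh4a1 and Ass1 rose and Slc38a1 fell. No mitochondrial synthetase or synthetase partner was called in either well. The member Slc7a11, also an ATF4 target, was at 10.7 CPM with LY3009120, below the 53.4 CPM median of the other wells, and was not called.

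NT157, an inhibitor of insulin receptor substrate signalling, moved the set in both directions. On plate 2 it had 5 members higher and 4 lower, beside 15.1% and 13.1% of all genes, and a member median of 0.01 beside -0.12 over all genes. The share of members called was near that of all genes. Fibroblast markers summed to 2540 CPM in this well, below the 4065, 6376 and 10339 CPM of the other wells, and macrophage markers to 641 CPM, above their 10.8, 78.7 and 226 CPM; their part in the results was not tested. Slc3a2 had 894 CPM with NT157 and 151, 286 and 518 CPM in the 86 other wells (1.66 ± 0.22, adjusted p = 3.11e-09), above all of them. Farsa, the other phenylalanyl-tRNA synthetase subunit, and Rars rose by 1.09 and 1.01, also above every other well, and Sars and Aars by 0.50 and 0.57. Pck2 had 1 count with NT157, a ratio of 0.0803 to the other wells with a 95% counting interval of 0.00203 to 0.448 (adjusted p = 0.012). Pycr1 also had 1 count, a ratio of 0.0928 with an interval of 0.00235 to 0.518 (adjusted p = 0.0306). Yars and Qars fell by 0.86 and 0.71. Adjusted over all compounds of the plate, only Slc3a2 kept its call in this well. The stress response list had 10 genes higher and 1 lower of 21, led by Ddit3 (628 CPM with NT157 and 21.6, 65.5 and 365 CPM in the other wells, 3.18 ± 0.32), Atf3, Chac1 and Atf5, with Atf4 at 1.05 ± 0.29. The 10 include Trib3, which passed the filter on low counts on plate 2 through this well only. Gpt2 was at 1 count.

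CHR_6494, a haspin kinase inhibitor, had 3 members higher and none lower where 0.445% of all genes were higher. Slc7a5 had 94.7 CPM with CHR_6494 and 0, 27.8 and 62.4 CPM in the other wells of plate 2 (1.72 ± 0.34, adjusted p = 0.00298). Psat1 had 295 CPM and 57.8, 120 and 192 CPM in the other wells (1.31 ± 0.26, adjusted p = 0.00298), and Shmt2 had 135 CPM and 20.0, 56.2 and 97.4 CPM (1.26 ± 0.27, adjusted p = 0.00806). All 3 exceeded every other well and kept their calls in each alternative tried. Asns had 146 CPM with CHR_6494 and did not pass (0.98, adjusted p = 0.058).

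The next compounds had 2 members higher each. MCB_613, a stimulator of steroid receptor coactivators, had Farsb at 135 CPM with a median of 52.0 CPM in the other wells (1.13 ± 0.34, adjusted p = 0.0374) and Rars at 278 CPM with a median of 112 CPM (1.06 ± 0.33, adjusted p = 0.0455), beside 2.58% of all genes higher. APTO_253 had Farsa at 156 CPM with a median of 46.3 CPM in the other wells (1.46 ± 0.44, adjusted p = 0.0375) and Slc3a2 at 653 CPM with a median of 263 CPM (1.19 ± 0.33, adjusted p = 0.0243), beside 2.64% of all genes higher. Each of these 4 values was the highest of plate 1, and all 4 calls were lost with no filter and when adjusted over all compounds of the plate (adjusted p = 0.0616 to 0.368).

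LDC4297, a CDK7 inhibitor, had 2 members higher and 3 lower beside 9.35% and 10.3% of all genes. Farsb had 172 CPM with LDC4297 and 22.4, 54.3 and 113 CPM in the other wells of plate 3 (1.44 ± 0.29, adjusted p = 0.000323), and Rars had 270 CPM, the highest of the plate (1.04 ± 0.30, adjusted p = 0.00985). Slc7a11 had 7.99 CPM with LDC4297 and 5.96, 53.4 and 117 CPM in the other wells (-2.80 ± 0.90, adjusted p = 0.0213), and Dars (aspartate) and Qars fell by 1.36 and 0.93. Adjusted over all compounds of the plate, Farsb kept its call, and Slc7a11, Dars and Rars did not (0.284, 0.142 and 0.156).

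Compounds with a single member called gave short lists. GDC_0623 had Slc1a4 higher by 2.22 ± 0.44 (adjusted p = 0.000268) beside 3.6% of all genes, and CCT245737 had Gars higher by 0.95 ± 0.25 (adjusted p = 0.0406) beside 0.763%. Of all genes called lower there were 0.29% with CFI_400945, which had Psat1 at -1.27 ± 0.35 (adjusted p = 0.0492), 0.954% with BMS_3, which had Yars at -0.93 ± 0.28 (adjusted p = 0.0498), and 4.59% with FIIN_2, which had Dars at -1.37 ± 0.40 (adjusted p = 0.0189). Adjusted over all compounds of the plate these calls of Yars and Dars were lost (0.202 and 0.189), and that of Yars also with no filter (0.0972). The adjustment over all compounds is not given here for these calls of Slc1a4, Gars and Psat1, and those of Gars and Psat1 lay near the threshold without it. BEZ235 had Mthfd2 lower at 2 counts, a ratio of 0.118 with an interval of 0.0143 to 0.428 (adjusted p = 0.0311), beside 4.83% of all genes. Avitinib had Sars lower (-1.15 ± 0.25, adjusted p = 0.023) beside 1.62% of all genes; its well had 15.23% of the median total of plate 2 and the median of all genes was -0.38 there, so relative to that shift Sars was lower by less, and with RLE scaling its adjusted p was 0.116.

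Across compounds Slc1a4 was called higher in 4 (GDC_0623, Trametinib, Erdafitinib and LY3009120) and Psat1, Rars, Sars, Shmt2 and Slc7a5 in 3 each. Qars was called lower in 4 (Trametinib, NT157, LDC4297 and LY3009120) and never higher, and Dars, Sars, Slc7a11 and Yars were called lower in 2 each. Sars was the synthetase called in both directions. Cars, Iars, Kars, Tars, Vars, Aldh18a1, Slc7a1 and Sesn2 were called with no compound. Across the wells of a plate Qars varied little, with a coefficient of variation of 15.1 to 17.4%, while Slc1a4 varied by 61.3 to 86.5% and Pck2 by 45.8 to 89.1%.

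**Figure D4:**
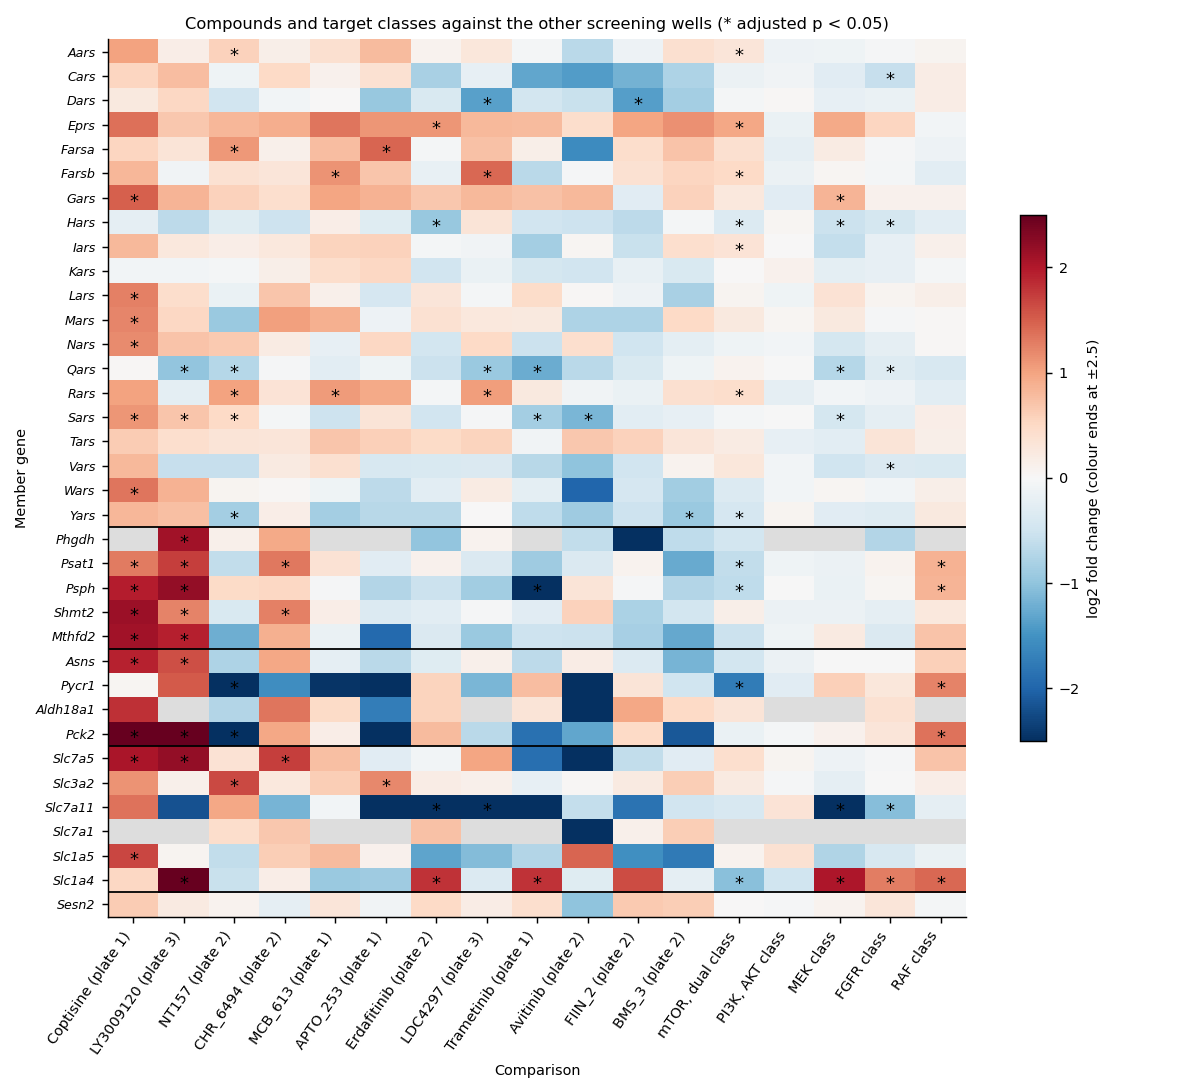
Log2 fold changes of the 36 members for the 12 named compounds and 5 target classes against the other screening wells, with members in lines ordered by role, colour ending at ±2.5, grey where a gene did not pass the filter and an asterisk where adjusted p was under 0.05. Asterisks on higher members gather in the Coptisine (14) and LY3009120 (10) columns, and the PI3K and AKT class column holds none.

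Compounds were also pooled by main target with plate as a term. Slc1a4 was called higher and Slc7a11 lower with the MEK and the FGFR inhibitors. With the FGFR inhibitors both calls were lost without Erdafitinib, and a shared cause was not tested. The 12 EGFR and HER2 inhibitors had no member called. Over the 18 classes with no member called, this one included, 0.135% of all gene tests were called. The share for the EGFR and HER2 class alone is not given here. With 3 MEK inhibitors 2 members were higher and 4 lower, beside 12% and 10.4% of all genes. Slc1a4 had 114.5 CPM with GDC_0623, 92.2 CPM with Trametinib and 44.0 CPM with Ro_5126766, while the median of the other wells of plate 1 was 20.8 CPM (2.01 ± 0.30, adjusted p = 4.84e-08). Slc7a11 had 3.01, 4.01 and 0 CPM with the same compounds and a median of 39.4 CPM in the other wells. Its 2 counts over the class gave a ratio of 0.0814 with a counting interval of 0.00985 to 0.295 (adjusted p = 0.00154). Trametinib is also the well with the highest epithelial, muscle and neural marker sums, and their part was not tested. The calls of Slc1a4 and Slc7a11 held under every alternative tried, the fit without Trametinib included, although the Ro_5126766 well had 14.27% of the plate's median total. In that well alone the log2 fold changes were 0.76 ± 1.36 for Slc1a4 and -6.60 ± 4.78 for Slc7a11, so it resolved neither gene. Gars rose by 0.85, and Qars, Hars and Sars fell by 0.71, 0.53 and 0.44; without Trametinib these 4 had adjusted p = 0.109, 0.248, 0.121 and 0.551, without GDC_0623 Gars and Hars had 0.285 and 0.206, and without Ro_5126766 Sars had 0.075.

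With Trametinib alone 1 member was higher and 3 lower, beside 7.37% and 5.84% of all genes. Slc1a4 rose by 1.81 ± 0.54 (adjusted p = 0.0139). Psph had 3 counts, a ratio of 0.19 with an interval of 0.0392 to 0.557 (adjusted p = 0.0497). Qars had 80.2 CPM with Trametinib, below the 102, 165 and 225 CPM of the other wells (-1.23 ± 0.32, adjusted p = 0.00374), and Sars fell by 0.85. None of these 4 calls held when adjusted over all compounds of the plate.

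With 4 FGFR inhibitors 1 member was higher and 5 lower, beside 8.54% and 6.05% of all genes. Slc1a4 had 89.6 CPM with Erdafitinib, 86.4 CPM with FIIN_2, 49.2 CPM with Dovitinib and 12.9 CPM with SU_5402, with medians of 19.8 to 20.4 CPM in the other wells of plate 2 (1.29 ± 0.27, adjusted p = 0.000205). Slc7a11 had 8.27, 14.4, 8.43 and 51.4 CPM with these compounds and medians of 44.4 to 45.3 CPM in the other wells (-1.07 ± 0.29, adjusted p = 0.00545). SU_5402 lay below the median for Slc1a4, with 74 other wells above it, and above the median for Slc7a11; the other 3 compounds lay on the opposite sides. Cars, Hars, Vars and Qars fell by 0.57, 0.45, 0.37 and 0.32. Without Erdafitinib no member was called, and Slc1a4 and Slc7a11 had adjusted p = 0.0861 and 0.225. Without FIIN_2 only Slc1a4 was called, with Slc7a11 at 0.0566, and without SU_5402 10 members were. Without Dovitinib Slc7a11, Cars, Vars and Qars lost their calls (0.0753 to 0.11). Erdafitinib alone had Slc1a4 higher (1.80 ± 0.46, adjusted p = 0.00409), Eprs higher (1.11 ± 0.37), Slc7a11 lower (-2.54 ± 0.69, adjusted p = 0.00744) and Hars lower (-0.95 ± 0.27), beside 6.96% and 4.72% of all genes; adjusted over all compounds of the plate these 4 had adjusted p of 0.06 to 0.353.

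With 4 RAF inhibitors 5 members were higher and none lower, beside 2.31% and 0.185% of all genes: Slc1a4, Pck2, Pycr1, Psat1 and Psph, by 1.44, 1.36, 1.23, 0.87 and 0.85. These calls rested on LY3009120, and without it no member was called (Pck2 0.05, Psph -0.02); without CCT196969 Pycr1 and Psph were not called (adjusted p = 0.536 and 0.0639). The RAF compounds differed among themselves. Slc1a4 had 131 CPM with LY3009120 and 73.5 CPM with CCT196969, but 20.7 CPM with BRAF_inhibitor and 15.5 CPM with Dabrafenib. Slc7a11 had 10.7 CPM with LY3009120 and 3.67 CPM with CCT196969, but 64.6 CPM with BRAF_inhibitor and 51.8 CPM with Dabrafenib. The first pair lay away from their plate medians in both genes, as the GDC_0623 and Trametinib wells did, and the second pair lay near or on the other side of them. Doses were not given and the difference between the pairs was not tested.

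**Figure D5:**
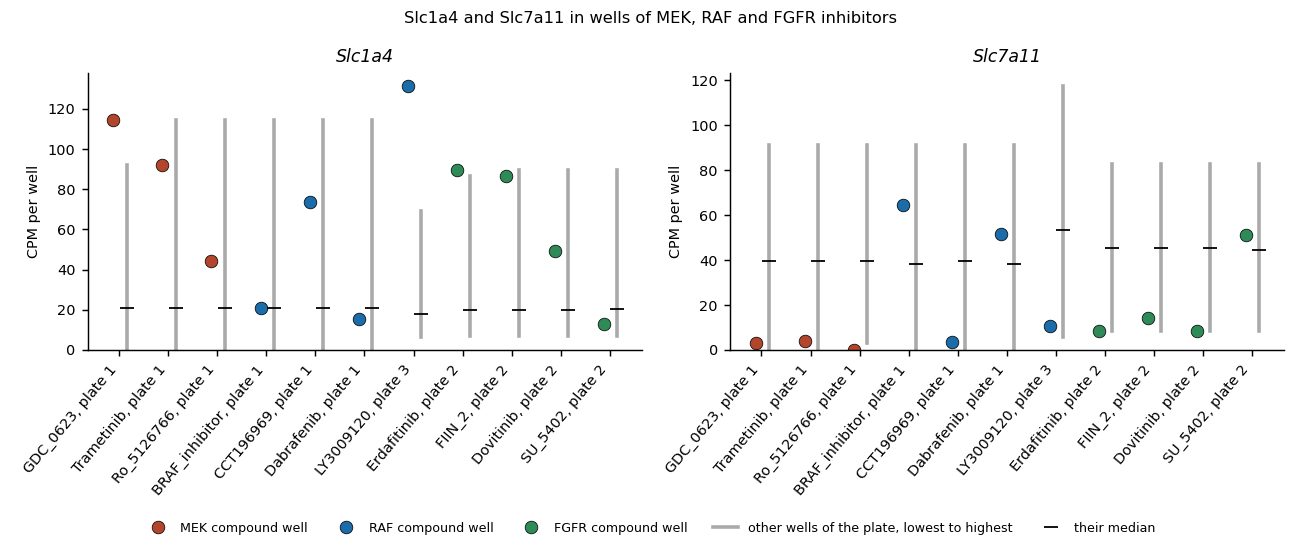
Slc1a4 and Slc7a11 in CPM in each well of 3 MEK, 4 RAF and 4 FGFR inhibitors (coloured points), beside the lowest to highest range (grey line) and median (dash) of the other screening wells of the same plate. GDC_0623, Trametinib, CCT196969, LY3009120, Erdafitinib, FIIN_2 and Dovitinib lie above the median for Slc1a4 and below it for Slc7a11, and BRAF_inhibitor, Dabrafenib and SU_5402 do not. The third MEK inhibitor, Ro_5126766, is drawn on the same sides, but its well had too few counts to resolve either gene.

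With 5 mTOR and dual PI3K/mTOR inhibitors 5 members were higher and 6 lower, beside 10.6% and 9.59% of all genes. The members higher were 5 of the 20 synthetases: Eprs, Farsb, Rars, Iars and Aars, by 0.97, 0.49, 0.44, 0.34 and 0.31. Those lower included the proline enzyme Pycr1 (-1.74 ± 0.42, adjusted p = 0.000994), Slc1a4 (-1.05 ± 0.38), Psph (-0.63 ± 0.24) and Psat1 (-0.62 ± 0.19), and the synthetases Yars and Hars (-0.42 and -0.34). Eprs, the fused glutamyl- and prolyl-tRNA synthetase, had 92.9 CPM with PF_04979064, 72.2 CPM with GNE_317 and 55.4 CPM with PI_103, with a median of 24.3 CPM in the other wells of plate 1. It had 53.6 CPM with CC_115 (2 wells) and 75.5 CPM with BEZ235, with medians of 32.5 and 27.95 CPM on plates 2 and 3. Every compound of the class lay above its plate median, CC_115 by the mean of its 2 wells (0.97 ± 0.23, adjusted p = 0.000757). This was the 1 call of the 11 that held under every alternative.

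Pycr1 had 0, 2.67 and 15.1 CPM with PF_04979064, GNE_317 and PI_103 and a median of 19.4 CPM in the other wells. It had 6.35 CPM with CC_115 (mean of 2 wells) and 3.15 CPM with BEZ235, and all these values lay below their plate medians. Its call was lost on plate 1 alone (adjusted p = 0.244). The call of Slc1a4 was lost without any 1 compound but PI_103 (0.0666 to 0.23), that of Psph without any 1 compound but BEZ235 (0.0614 to 0.195) and with DESeq2 (0.0552), and those of Farsb and Psat1 without CC_115 (0.209 and 0.0852). Leaving out BEZ235 ended the calls of Rars, Iars, Aars, Yars and Hars (0.0624 to 0.196). Leaving out CC_115 ended those of Iars, Aars and Hars (0.0623 to 0.41), GNE_317 those of Rars, Yars and Hars (0.0521 to 0.0998), PF_04979064 those of Rars and Aars (0.121 and 0.0794) and PI_103 that of Iars (0.0805). The stress response list had 3 genes higher, Ddit3, Atf5 and Atf4, by 1.75, 1.42 and 0.83, and Ddit4 and Gpt2 lower, of 17 tested.

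PI3K and AKT inhibitors without mTOR as a target (15 compounds) had no member called by edgeR's quasi-likelihood test, with 4 at an unadjusted p under 0.05 and 0 called by DESeq2; 0% of all genes were called in either direction. Of the other classes, PLK4 inhibitors had Psat1 (-0.93 ± 0.23, adjusted p = 0.0129) and Pycr1 (-1.89 ± 0.57, adjusted p = 0.0437) lower beside 1.78% of all genes. VEGFR and PDGFR inhibitors had Sesn2 (-0.47 ± 0.11, adjusted p = 0.0078) and Aars (-0.33 ± 0.09, adjusted p = 0.0302) lower beside 1.29% of all genes. The remaining 18 classes, CDK8 and CDK19 inhibitors among them, had no member called in 614 member tests, with member medians of -0.11 to 0.08, while 0.135% of all their gene tests were called.

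The library held 7 compounds reported to act on the integrated stress response or on eIF2 and its kinases: GSK2606414, GSK2656157, ISRIB, Sal003, Tauroursodeoxycholate, TIC10 and Tomatidine, gathered by reported target after results were seen. None had a member or any other gene called (0% of gene tests, edgeR). The members at an unadjusted p under 0.05 numbered 0 to 5, and the member medians ran from -0.16 to 0.15. With 1 well each, changes smaller than those called with other compounds were not resolved at this depth.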

How the data were processed

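DRUG-seq2 counts per gene and well were deposited by the authors as 1 table of raw counts; per the submitters' processing notes STAR and the mm10 build were used, while the sources used here do not name the counting tool or whether it used strand. Of 274 columns 258 carry a plate label that could be matched and 16 were not used; 4 repeat columns were merged to give 254 wells. Screening wells under 10% of their plate's median total (4 wells) were left out. CPM is a gene's count scaled to a common total per well. Tests used edgeR 4.0.16 in R 4.3.3 (quasi-likelihood, TMM, filterByExpr with a minimum count of 10, Benjamini-Hochberg over all genes of a fit, called at adjusted p under 0.05). In the compound fits a gene passed this filter once any single well of the plate reached the level. A gene could therefore be tested only because it was high in the compound's own well. The 30 media wells (119295 to 726228 counts, median 448881) shared 1 fit; each compound was tested against all other screening wells of its plate, and each target class (3 or more compounds by main target, from general knowledge, and the 2 CDK8 and CDK19 inhibitors) the same way with plate as a term. The scripts were tested on simulated data. Alternatives were RLE scaling, no filter, DESeq2 1.42.0 (media and classes), leaving out single wells, the wells MEF 3 and bC8FAE 4 together, plate 1 alone, a well minimum of 25% and adjustment over all compounds of a plate. The members, gene lists and target classes were chosen with earlier results of these data known. The text names up to 8 called members per direction in a media comparison or class, the 8 compounds with the most members called in each direction and up to 4 called genes of another list; other members are named to complete a count or a role group. Exons of several members overlap other genes, chiefly Aars with Exosc6 on the same strand and Farsb with Sgpp2, Hars with Hars2, Mars with Ddit3, Psph with Cct6a, Shmt2 with Ndufa4l2 and Yars with C77080 on opposite strands, so their counts carry that uncertainty. Promoter sequences are RefSeq's, from GRCm38.p6.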

Additional observations from a re-analysis of the deposited data

Results flagged for a closer look

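By Dixon's test at 95%, 6 of the groups of member and medium tested, 5.2% of them, held a well far from the others, where chance gives about 5% of groups. Slc7a11 in bC8FAE replicate 4 was at 117.4 CPM while the other bC8FAE wells had 30.4 to 53.4 CPM; this well had 119295 counts, the fewest of the media wells. Rars in bCSFAE replicate 1 was at 145.6 CPM while the others had 105.7 to 109.8 CPM. Slc1a4 in bC6FAE[10] replicate 4 was at 13.9 CPM while the others had 25.5 to 26.9 CPM. Kars in bCSFAE replicate 2 was at 224.8 CPM while the others had at least 200 and at most 204.3 CPM. Nars in bCLFAE replicate 2 was at 340.7 CPM while the others had 234.5 to 240.2 CPM. Sesn2 in bCSFAE replicate 4 was at 52.0 CPM while the others had 76.5 to 77.3 CPM. In wells labelled as holding no cells, which entered no comparison, members had 16 counts in 1 well (11 members, 4280 counts in all) and 75 counts in the other (23 members, 25308 counts in all), 3738 and 2964 CPM summed over the set.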

How the results depend on the processing

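The counts of members called in bCFAE over basal, bC8FAE over MEF, bC6FAE[10] and bCSFAE over bCFAE and with Coptisine and CHR_6494 stayed within 1.5 times under all alternatives run. Of 126 member values in named comparisons 57 kept their call everywhere; over 952 values under alternatives 765 kept direction and call, 185 fell short of the threshold and 2 reversed. The reversals were Psph with RAF inhibitors, at -0.02 without LY3009120 and on plate 1 alone. Leaving out 1 well or compound gave 4 to 9 members called for bC8FAE over bCFAE, 1 to 3 for bC6FAE[2], 2 to 4 for bCLFAE, 4 to 10 for mTOR, 2 to 5 for MEK, 0 to 10 for FGFR and 0 to 6 for RAF inhibitors; the cause was not tested. With no filter mTOR inhibitors had 6 members called, and on plate 1 alone 1; RAF inhibitors had 0 on plate 1 alone, where fewer compounds entered. Adjusted over all compounds of a plate, LY3009120 had 7 members called, NT157 1, and 8 compounds had any. Leaving out single compounds was not run for the 15 PI3K and AKT inhibitors. No paired analysis was possible because each plate is its own group with 1 replicate and well numbers are only names. Depth limits low members most: Slc7a1, Phgdh, Pycr1 and Slc7a11 rest on few counts per well.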

Other observations

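In the NT157 well 3 of 11 tested genes of amino acid sensing by mTORC1 rose and 1 fell, beside 15.1% of all genes called higher and 13.1% lower with this compound. Rragd, a Rag GTPase that recruits mTORC1 to the lysosome, had 46.2 CPM with NT157 and 0, 2.51 and 15.6 CPM in the other wells (lowest, median and highest). It passed the filter on low counts on plate 2 through this well only, so its call, counted in the 3, is no support. Rraga had 133 CPM with NT157 and 10.2, 29.9 and 102 CPM in the other wells (log2 fold change 2.01 ± 0.39, adjusted p = 2.67e-05, edgeR), and Rragc rose by 1.09 ± 0.32 (adjusted p = 0.00603). Depdc5, a subunit of the complex that inactivates Rag GTPases, had 1 count (adjusted p = 0.0221). Eef1e1 and Aimp2, scaffold proteins of the multi-synthetase complex, rose by 2.15 and 0.98. Arginase Arg2 had 21.2 CPM with NT157 and at most 4.56 CPM in the other wells, and it too passed the filter through this well only. Of 12 mitochondrial synthetases tested, a share near that of all genes was called: Yars2 rose by 1.71, and Cars2 and Rars2 fell by 2.07 and 1.59.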
